A study of Mus musculus with 5 samples.

Results

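Matricellular and adhesive glycoproteins were examined as a set of 9 genes, Fn1, Sparc, Sparcl1, Spp1, Tnc, Tnr, Thbs1, Thbs2 and Postn, among the 25414 genes of the series. They were chosen by name, from the RefSeq identifiers of the deposited transcript rows, with earlier results of these data known. Together they held 27 of the 40201 rows, and the values of rows with the same symbol were summed per sample. RNA-seq was examined in 2 cell types of the study, which set out to compare the genome organization of stem cells of several kinds. NSC were primary neural stem cells from mouse embryonic cortex (E12.5), kept for 5 to 8 passages on laminin and poly-ornithine in a serum-free medium with EGF and bFGF, and were sequenced in 2 replicates. STO is a line of SIM mouse embryonic fibroblasts that resist thioguanine and ouabain, often used as feeder cells, grown here in DMEM with fetal bovine serum for more than 30 passages and sequenced in 3 replicates. Both cell types were labelled as strain C57BL/6. Cell type, medium, coating and passage differed together and cannot be told apart, and STO is a single established line.

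Matricellular proteins are secreted into the extracellular matrix, where they bind collagens, growth factors and cell-surface receptors and tune adhesion and spreading without forming the load-bearing scaffold. Fibronectin is their adhesive counterpart: integrins pull it into fibrils, on which many of the others are laid down. In the developing cortex tenascins and Sparcl1 are typical products of neural progenitors and glia, whereas periostin and fibronectin are typical products of fibroblasts and other mesenchymal cells.

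The values are FPKM, fragments scaled to transcript length and to the number mapped, so levels of different genes can be set side by side. The samples' FPKM summed to between 385485 and 446393, and the confidence intervals deposited with the values implied between 15223341 and 22271922 fragments per sample, sums that are too low because rows of 1 gene share reads. Replicates had a Pearson's r of 0.994 in NSC and of 0.995 to 0.996 in STO across genes, which are not independent replicates. The 5 neural stem cell markers (Sox2, Nes, Pax6, Olig2 and Fabp7) summed to 3772 to 3985 FPKM in NSC and to 0.0380 to 0.0724 FPKM in STO, where Sox2, Pax6, Olig2 and Fabp7 were listed at 0. Of the NSC sum, Fabp7 made up 2912 FPKM on average and Pax6 5.13 FPKM. The 6 fibroblast markers (Col1a1, Col1a2, Col3a1, Pdgfrb, Twist1 and Prrx1) summed to 5.85 to 6.31 FPKM in NSC, of which Prrx1 made up 5.65 on average, and to 1044 to 1130 FPKM in STO. The labels of the 5 samples therefore matched these markers. Markers of astrocytes and oligodendrocytes, which were also seen in NSC, are given below.

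All 9 members were expressed in at least 1 cell type, and they divided into 6 that were higher in STO (Fn1, Sparc, Spp1, Thbs1, Thbs2 and Postn) and 3 that were higher in NSC (Sparcl1, Tnc and Tnr). Thbs1 and Thbs2 stood together on the STO side and Tnc and Tnr on the NSC side, whereas Sparc and its relative Sparcl1 stood on opposite sides. In every member the 2 NSC values and the 3 STO values did not overlap. That alone is weak, because the groups did not overlap in 89.9% of the 12292 genes tested, which had a mean of at least 1 FPKM in NSC or in STO. For a gene that reached this mean in only 1 cell type, the filter set the direction of the difference. Thbs1, Thbs2 and Postn reached it only in STO, and Sparcl1 and Tnr only in NSC. By limma with Benjamini-Hochberg adjustment over these genes, at an adjusted p under 0.05, 41.9% of all genes were higher and 43.7% lower in STO, 85.6% together, so that the 2 cell types differed nearly everywhere and the size of a difference says more than its call. On the scale of log2(FPKM + 1), 5 members were at least 3 units higher in STO, as were 3.39% of all genes, and 2 members were at least 3 units lower, as were 5.31% of all genes. The median difference of the 9 members was 4.61, against -0.02 over all genes tested. Because the members were chosen with earlier results known, these values describe them and test nothing about the set. Nothing in the sources used here says that replicates came from separate cultures, so p-values measure the spread between these samples, which may be technical.

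**Figure D1:**
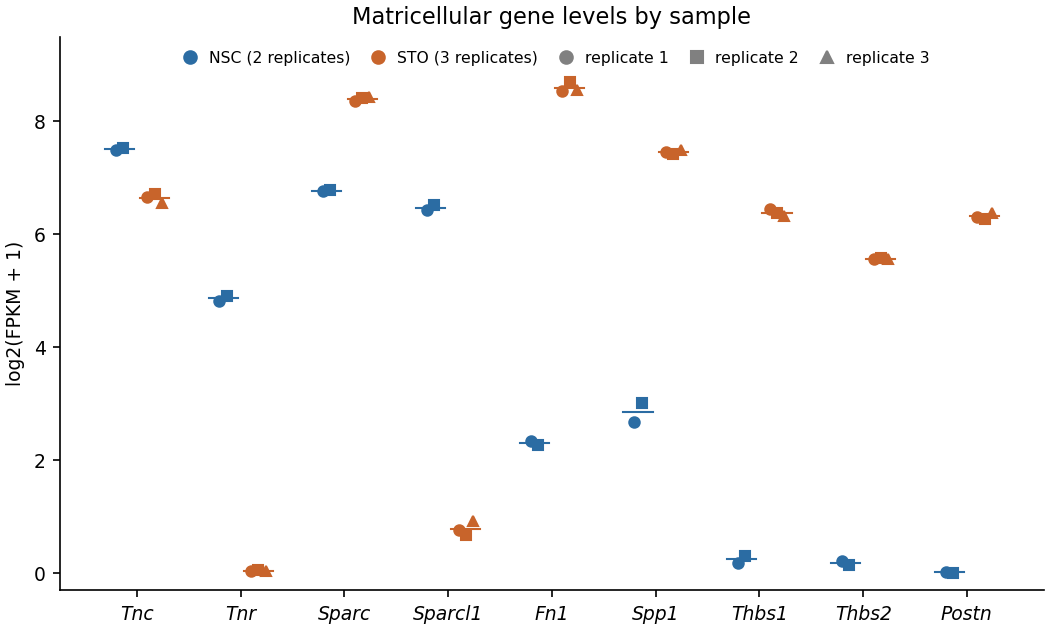
Level of each member in each sample, as log2(FPKM + 1); points are replicates, marked by shape, and horizontal lines are the means of the 2 NSC (blue) and 3 STO (orange) replicates. Tnc and Sparc are high in both cell types, Sparcl1 and Tnr are high only in NSC, and Thbs1, Thbs2 and Postn lie near 0 in NSC.

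Sequences before the start sites are shown for Postn, Thbs2 and Tnr. These are the 3 members that were near 0 in 1 cell type and have an entry in the promoter table used. Sequences are also shown for Spp1, which lies 321 kb from Sparcl1 on chromosome 5, and for Tnc, which was high in both cell types. Each is the 250 bases before a RefSeq start site, from a table for GRCm38.p6. In mm9, the build of the files, each occurred once on its own chromosome in the gene's orientation, directly before the first base of the member's locus. Other chromosomes and the opposite strand were not searched. The table held 6 of the 9 members with 9 start sites and had none for Fn1, Sparcl1 and Thbs1. Capitals mark motifs found on either strand, and the motifs searched were the TATA box as TATAAA, the CCAAT box, the GC box as GGGCGG, the AP-1 site as TGANTCA, the TEAD site as GGAATG, the SOX site as ACAAAG, the E-box as CAGCTG, and the CArG box. No marked motif overlaps another.
Postn, chr3:54164779-54165028, plus strand: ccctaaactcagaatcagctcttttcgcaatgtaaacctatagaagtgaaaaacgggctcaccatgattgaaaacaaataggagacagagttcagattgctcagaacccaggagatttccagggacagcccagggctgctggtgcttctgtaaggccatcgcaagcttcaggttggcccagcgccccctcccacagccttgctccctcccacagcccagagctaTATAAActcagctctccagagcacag
Thbs2, chr17:14831270-14831519, minus strand: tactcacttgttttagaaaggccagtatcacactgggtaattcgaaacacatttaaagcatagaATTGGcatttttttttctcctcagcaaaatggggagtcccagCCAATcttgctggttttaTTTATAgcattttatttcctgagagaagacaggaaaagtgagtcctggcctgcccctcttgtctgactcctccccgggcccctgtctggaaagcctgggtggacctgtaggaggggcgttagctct
Spp1, chr5:104863880-104864129, plus strand: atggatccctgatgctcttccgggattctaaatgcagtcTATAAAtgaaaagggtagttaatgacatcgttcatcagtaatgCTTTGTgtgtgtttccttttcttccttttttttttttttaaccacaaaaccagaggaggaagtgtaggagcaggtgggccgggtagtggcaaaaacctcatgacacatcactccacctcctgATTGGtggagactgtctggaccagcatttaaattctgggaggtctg
Tnr, chr1:161453650-161453899, plus strand: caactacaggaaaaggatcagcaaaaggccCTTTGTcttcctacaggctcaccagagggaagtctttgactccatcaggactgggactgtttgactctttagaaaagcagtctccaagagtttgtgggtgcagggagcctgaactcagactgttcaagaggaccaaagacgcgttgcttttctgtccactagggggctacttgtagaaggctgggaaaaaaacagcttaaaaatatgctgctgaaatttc
Tnc, chr4:63708050-63708299, minus strand: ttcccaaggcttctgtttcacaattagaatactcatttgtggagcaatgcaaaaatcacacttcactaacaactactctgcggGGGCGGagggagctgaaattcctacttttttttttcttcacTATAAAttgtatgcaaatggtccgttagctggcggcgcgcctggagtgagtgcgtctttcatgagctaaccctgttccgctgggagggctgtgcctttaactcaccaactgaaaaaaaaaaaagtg
Postn carries TATAAA 26 bases before its start. In Thbs2 the same motif lies on the opposite strand at 126 bases, with CCAAT at 144 bases and, on the opposite strand, at 186 bases. Spp1 carries TATAAA at 211 bases, ACAAAG on the opposite strand at 168 bases and CCAAT on the opposite strand at 46 bases. Tnr carries only ACAAAG, on the opposite strand at 220 bases, and Tnc carries TATAAA at 126 bases and GGGCGG at 167 bases. Of the 9 promoters, 5 held TATAAA, against 12.4% of the 32851 promoters of the table, 3 held ACAAAG (16.5%), 2 held CCAAT (33.8%), 2 held GGGCGG (32.7%) and 1 held CAGCTG (13%). Some members have more than 1 start site in the table. The windows of Tnc overlap and hold the same TATAAA and the same GGGCGG, which are counted here for both windows. TGANTCA (6.75%), GGAATG (12.6%) and the CArG box (1.47%) were in none. A match is a string of letters in this window and was not tested as a binding site.

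Fibronectin was the most abundant member in STO and one of the low ones in NSC. Fn1 (mm9 chr1:71632047-71699808, minus strand, up to 46 exons in a transcript of the GENCODE annotation) encodes the fibril-forming glycoprotein that integrins bind. Its level was 4.09 and 3.80 FPKM in NSC replicates 1 and 2, and 370, 412 and 377 FPKM in STO replicates 1, 2 and 3. The lowest STO replicate stood far above both NSC replicates. The means were 3.95 ± 0.207 FPKM (SD, n = 2) in NSC and 386 ± 22.5 FPKM (SD, n = 3) in STO, a 97.9-fold difference. On the log2(FPKM + 1) scale the difference was 6.29 ± 0.067 (SE; limma adjusted p = 6.03e-09), and 99.2% of tested genes had a smaller absolute difference. These are bulk samples, in which fewer cells of a type and less RNA per cell cannot be told apart. The fibroblast markers in NSC are given above, with Col3a1 at 0 in both replicates, and their part in the low level of Fn1 in NSC was not tested.

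The rows that carried the Fn1 signal differed between the cell types. Of 7 RefSeq rows, 5 were above 0 in some sample, and NM_001276412 and NM_001276413 were listed at 0 throughout. NM_001276408 held 71.1% and 80.9% of Fn1 in the NSC replicates, at 2.91 and 3.08 FPKM, but between 12.8% and 18.4% in STO, at 68.2, 72.1 and 48.1 FPKM. In STO the main row was NM_001276410, with 204, 236 and 196 FPKM and 51.9% to 57.3% of the gene, against 0.615 and 0.726 FPKM in NSC, or 15.0% and 19.1%. NM_010233 was listed at 0 in both NSC replicates and reached 97.5, 104 and 87.8 FPKM in STO, 23.3% to 26.4% of the gene. The 2 remaining rows were seen in 1 sample each. NM_001276409 was at 0.570 FPKM in NSC replicate 1 and at 0 elsewhere, and NM_001276411 was at 45.5 FPKM in STO replicate 3 and at 0 elsewhere.

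Each of the 3 rows seen in every STO replicate was higher in STO, by different amounts. Of these, NM_001276410 and NM_010233 reached a mean of 1 FPKM only in STO, so the filter, applied to single rows, set their direction. In a limma fit on single rows with the same scale and adjustment, NM_001276408 differed by 3.98 ± 0.19 (SE; adjusted p = 5.62e-05), NM_001276410 by 6.99 ± 0.097 (adjusted p = 1.59e-06) and NM_010233 by 6.60 ± 0.083 (adjusted p = 1.40e-06). NM_001276411, which rests on 1 sample, did not pass (1.85 ± 1.94, adjusted p = 0.42). In STO replicate 3 NM_001276408 was lowest where NM_001276411 appeared, and the sum of both was 68.2, 72.1 and 93.6 FPKM in the STO replicates. The sharing of reads among overlapping rows is an estimate of the quantifier, and the difference in shares between cell types was not tested. Which spliced regions these rows contain was not analysed here.

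**Figure D2:**
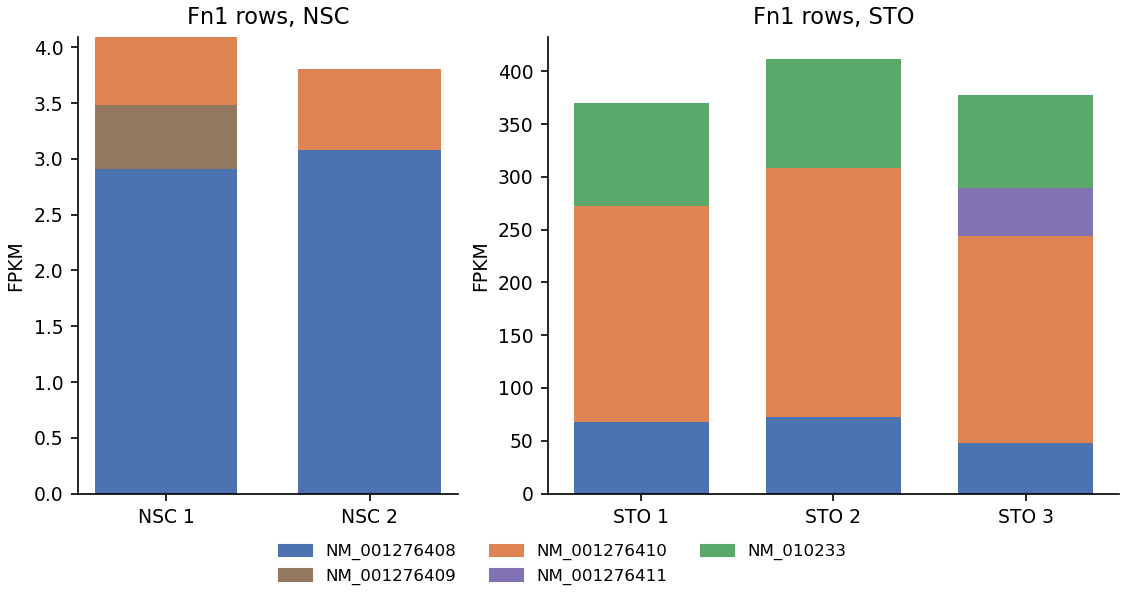
FPKM of the Fn1 RefSeq rows that were above 0, stacked per sample, with NSC at left and STO at right on separate linear axes that start at 0. NM_001276408 makes up most of the low NSC level, and NM_001276410 and NM_010233 most of the STO level.

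The thrombospondins Thbs1 and Thbs2 and periostin were close to absent from NSC and abundant in STO. Thbs1 (mm9 chr2:117937612-117952869, plus strand, up to 22 exons) encodes a trimeric glycoprotein that binds CD47 and CD36 and can activate latent TGF-beta. It was at 0.136 and 0.238 FPKM in the NSC replicates and at 85.9, 81.9 and 79.4 FPKM in the STO replicates. Both NSC values lay below 1 FPKM, and every STO value was far above them. The means of 0.187 ± 0.0723 (SD, n = 2) and 82.4 ± 3.30 FPKM (SD, n = 3) differed 440-fold, and the difference on the log2(FPKM + 1) scale was 6.13 ± 0.064 (SE; limma adjusted p = 5.80e-09). Its rows NM_011580 and NM_001313914 were both higher in STO, by 5.53 ± 0.092 and 4.92 ± 0.052, and NM_011580 held 62.0% to 64.7% of the gene there. Both rows passed the filter only through STO, which set their direction.

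Thbs2 (mm9 chr17:14802507-14831269, minus strand, up to 22 exons) encodes the second trimeric thrombospondin, known for its role in collagen fibril assembly and in limiting vessel growth. Its FPKM was 0.156 and 0.108 in NSC and 46.1, 46.7 and 46.5 in STO. The STO replicates were nearly equal, and no NSC replicate came near them. The means were 0.132 ± 0.0339 FPKM (SD, n = 2) and 46.4 ± 0.283 FPKM (SD, n = 3), 352-fold apart, with a difference of 5.39 ± 0.051 on the log2(FPKM + 1) scale (SE; limma adjusted p = 5.29e-09). The deposited intervals implied 29 and 22 fragments of this single-row gene in NSC, so the low level was above 0 in both replicates. Within STO, Thbs1 exceeded Thbs2 by ratios of 1.86, 1.75 and 1.71. In NSC the ratio was 0.873 in replicate 1 and 2.21 in replicate 2, so no order of the pair was seen there.

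Periostin was abundant in STO and at the limit of detection in NSC. Postn (mm9 chr3:54165029-54194963, plus strand, up to 23 exons) encodes a fasciclin-domain protein that links fibronectin, tenascin and collagen. It was listed at 0.0208 and 0 FPKM in NSC and at 77.9, 76.1 and 82.6 FPKM in STO. The whole NSC signal came to 1 implied fragment, in replicate 1, on the row NM_001313899, which was at 0 in STO. The mean was 78.9 ± 3.35 FPKM (SD, n = 3) in STO, and the ratio of the means was 7572 with a 95% counting interval of 1359 to 2.991e+05, which covers counting error only. The difference on the log2(FPKM + 1) scale was 6.30 ± 0.057 (SE; limma adjusted p = 5.07e-09); with so few fragments in NSC its size depends on the pseudocount, and it was 9.49 with a pseudocount of 0.1.

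In STO the main Postn row was NM_001198765, with 43.5, 49.9 and 46.4 FPKM, followed by NM_015784 with 22.8, 26.2 and 23.8 FPKM. Both rows were higher in STO (5.57 ± 0.071, adjusted p = 1.43e-06, and 4.66 ± 0.074, adjusted p = 2.13e-06, limma on single rows). They were at 0 in NSC and passed the filter only through STO, which set their direction. NM_001198766 was at 11.6, 0 and 12.5 FPKM and did not pass (adjusted p = 0.145), since STO replicate 2 lacked it while its summed Postn level was like that of the others.

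Osteopontin was present in both cell types and much higher in STO. Spp1 (mm9 chr5:104864130-104870072, plus strand, up to 8 exons) encodes a phosphorylated, acidic ligand of alpha v integrins and CD44. Its FPKM was 5.42 and 7.11 in NSC and 174, 170.1 and 180.3 in STO. Between the NSC replicates it spread more, relative to the mean, than Fn1, Sparc, Sparcl1, Tnc or Tnr did, yet all STO values were far higher. The means were 6.27 ± 1.20 FPKM (SD, n = 2) and 175 ± 5.11 FPKM (SD, n = 3), a 27.9-fold difference, and the difference on the log2(FPKM + 1) scale was 4.61 ± 0.10 (SE; limma adjusted p = 7.95e-08). Of its 5 RefSeq rows only NM_009263 was above 0, in all samples. Markers of microglia and macrophages, cells that can make osteopontin, summed to at most 0.0390 FPKM in NSC and to between 0.227 and 0.400 FPKM in STO, with C1qa at 0 in all 5 samples.

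The SPARC pair split between the cell types. Sparc (mm9 chr11:55207661-55233582, minus strand, up to 10 exons) encodes a collagen-binding calcium-binding protein also called osteonectin, and Sparcl1 (mm9 chr5:104508128-104543107, minus strand, up to 11 exons) encodes hevin, a relative with a longer acidic region that is known for promoting synapse formation. Sparc was at 107 and 109 FPKM in NSC and at 328, 338 and 346 FPKM in STO. It was thus high in every sample and highest in STO. The means of 108 ± 1.02 (SD, n = 2) and 337 ± 9.08 FPKM (SD, n = 3) gave a 3.12-fold difference, or 1.63 ± 0.056 on the log2(FPKM + 1) scale (SE; limma adjusted p = 6.05e-07). A smaller absolute difference was found in 78.3% of the genes tested. The row NM_009242 held 78.5% and 83.3% of Sparc in NSC and 81.1% to 82.4% in STO, so that the use of its 2 rows overlapped between the cell types.

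Sparcl1 went the other way, at 85.3 and 90.6 FPKM in NSC and at 0.694, 0.591 and 0.887 FPKM in STO. Every STO replicate was below 1 FPKM. With means of 87.9 ± 3.75 (SD, n = 2) and 0.724 ± 0.150 FPKM (SD, n = 3) it was 121-fold higher in NSC, and the difference was -5.69 ± 0.084 on the log2(FPKM + 1) scale (SE; limma adjusted p = 1.52e-08). The ratio of Sparc to Sparcl1 was 1.26 and 1.20 in NSC and 472, 572 and 390 in STO. In NSC, then, the 2 transcripts were at similar levels, while in STO nearly the whole sum was Sparc. The 6 astrocyte markers (Gfap, Aqp4, Aldh1l1, S100b, Slc1a3 and Gja1) summed to 326 to 330 FPKM in NSC, where all 6 had a mean of at least 1 FPKM and none was at 0, and to 50.6 to 55.8 FPKM in STO, where 2 did. Slc1a3, at a mean of 247 FPKM in NSC, is also known from neural stem cells, and Gja1 was higher in STO, at means of 10.5 FPKM in NSC and 26.6 FPKM in STO (1.26 on the log2(FPKM + 1) scale, limma adjusted p = 1.27e-05). The part of such cells in the Sparcl1 level was not tested.

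The tenascins Tnc and Tnr were both higher in NSC, Tnc mildly and Tnr almost completely. Tnc (mm9 chr4:63620819-63708049, minus strand, up to 26 exons) encodes the hexameric tenascin of the stem cell niche, wounds and tendons, and Tnr (mm9 chr1:161453900-161855053, plus strand, up to 22 exons) encodes the tenascin of the central nervous system, found in perineuronal nets and around myelinating glia. Tnc was at 179.9 and 184 FPKM in NSC and at 99.7, 104 and 93.2 FPKM in STO. It was the most abundant member in NSC and the fourth in STO, and the groups did not overlap. The means of 182 ± 3.24 (SD, n = 2) and 98.9 ± 5.36 FPKM (SD, n = 3) made it 1.84-fold higher in NSC. The difference of -0.88 ± 0.064 on the log2(FPKM + 1) scale (SE; limma adjusted p = 2.44e-05) was the smallest of the 9, and 56.4% of tested genes had a smaller one.

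Tnr was at 27.3 and 29.1 FPKM in NSC and at 0.0329, 0.0430 and 0.0216 FPKM in STO. The STO values rest on 4, 6 and 4 implied fragments. The NSC mean of 28.2 ± 1.24 FPKM (SD, n = 2) was 868 times the STO mean of 0.0325 ± 0.0107 FPKM (SD, n = 3), with a 95% counting interval of 517 to 1588. The difference was -4.82 ± 0.052 on the log2(FPKM + 1) scale (SE; limma adjusted p = 6.10e-09), which understates the contrast of so low a gene. The ratio of Tnc to Tnr was 6.58 and 6.34 in NSC and between 2414 and 4323 in STO. The 5 oligodendrocyte markers (Mbp, Mog, Sox10, Mag and Cnp) summed to 221 to 223 FPKM in NSC, where 4 had a mean of at least 1 FPKM and none was at 0, and to 1.41 to 1.54 FPKM in STO, where Mag was at 0. The 6 neuron markers (Rbfox3, Stmn2, Dcx, Tubb3, Snap25 and Syt1) summed to 17.6 to 19.2 FPKM in NSC and to 7.84 to 8.61 FPKM in STO. Of these sums Tubb3 made up 8.69 FPKM on average in NSC and 8.30 FPKM in STO, and it did not pass (limma adjusted p = 0.477). In STO Rbfox3, Stmn2 and Snap25 were at 0. The part of oligodendrocytes and neurons in the Tnr level of NSC was not tested.

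**Figure D3:**
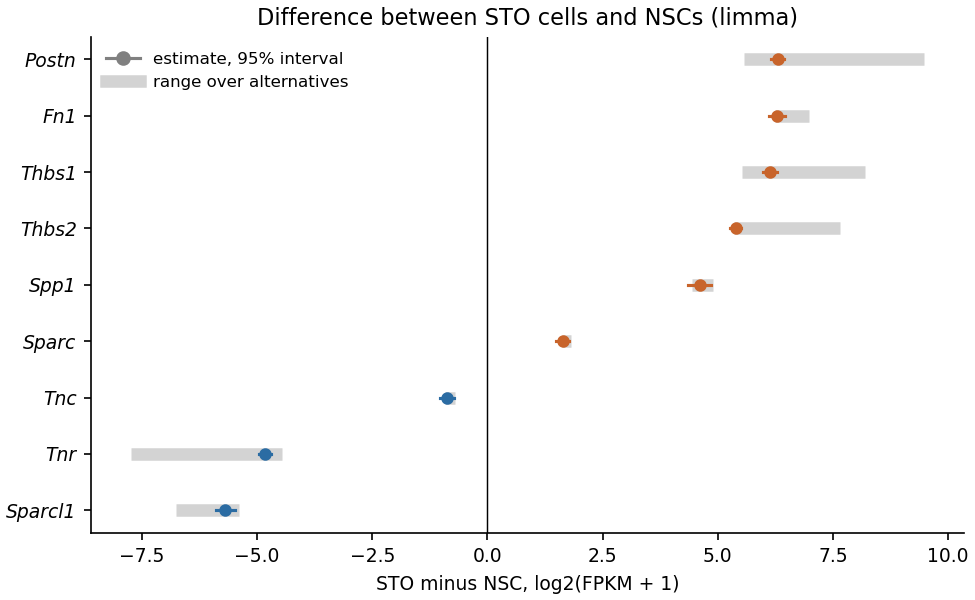
Difference of each member between STO and NSC on the log2(FPKM + 1) scale, with points and thin lines for the limma estimate and its 95% interval and grey bars for the range over 15 alternative analyses, some on other scales. No bar crosses 0, and the bars are widest for members near 0 in 1 cell type, such as Postn (5.57 to 9.49) and Tnr (-7.74 to -4.45).

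Set side by side, the members made different mixtures in the 2 cell types. Their FPKM summed to 410 and 424 in NSC, 0.0925% and 0.0951% of all FPKM, and to 1182, 1230 and 1206 in STO, 0.298%, 0.319% and 0.301%. In NSC the order of levels was Tnc, Sparc, Sparcl1, Tnr, Spp1, Fn1, Thbs1, Thbs2 and Postn, and only Thbs1 and Thbs2 overlapped over replicates. Tnc made up 43.9% and 43.5% of the members' sum, Sparc 26.2% and 25.7%, Sparcl1 20.8% and 21.3%, and Tnr 6.67% and 6.85%, whereas Fn1 gave 0.999% and 0.896%. In STO the order was Fn1, Sparc, Spp1, Tnc, Thbs1, Postn, Thbs2, Sparcl1 and Tnr, and only Thbs1 and Postn overlapped. Fn1 made up 31.3% to 33.5% there, Sparc 27.5% to 28.7%, Spp1 13.8% to 15.0%, Tnc 7.73% to 8.45%, Thbs1 6.58% to 7.27%, Postn 6.19% to 6.85% and Thbs2 3.80% to 3.90%. Sparc thus held about the same share in both mixtures although its level differed 3.12-fold.

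Sparcl1 and Spp1 lie on chromosome 5, 321 kb apart, on opposite strands, with the bone and tooth matrix genes Dspp, Dmp1, Ibsp and Mepe between them, which like Spp1 belong to the SIBLING family. Sparcl1 was high in NSC and Spp1 in STO, but the 4 genes between were near 0 in both cell types and none passed the filter for testing. Dmp1 was at 0.323 and 0.410 FPKM in NSC and at 0.0161, 0.0280 and 0.0105 FPKM in STO. Dspp was at 0.0501 and 0.0458 FPKM in NSC and at 0.00998, 0 and 0 FPKM in STO. Ibsp was listed at 0 in all samples and Mepe in all but STO replicate 3, at 0.0173 FPKM. Pkd2, which encodes the channel polycystin 2 and starts 24.3 kb beyond the Spp1 start, was also higher in STO, at 9.66 and 11.5 FPKM in NSC and 92.4, 89.8 and 87.7 FPKM in STO (2.98 ± 0.079 on the log2(FPKM + 1) scale, SE; limma adjusted p = 1.82e-07). On the other side of Sparcl1, Nudt9, an ADP-ribose hydrolase, was at 33.8 and 40.4 FPKM in NSC and 44.0, 41.8 and 48.3 FPKM in STO. That difference of 0.26 ± 0.097 had an adjusted p of 0.0397 and was lost in 6 of 15 alternatives, with an adjusted p of 0.0977 when the replicate number was a block and of 0.275 without NSC replicate 1.

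**Figure D4:**
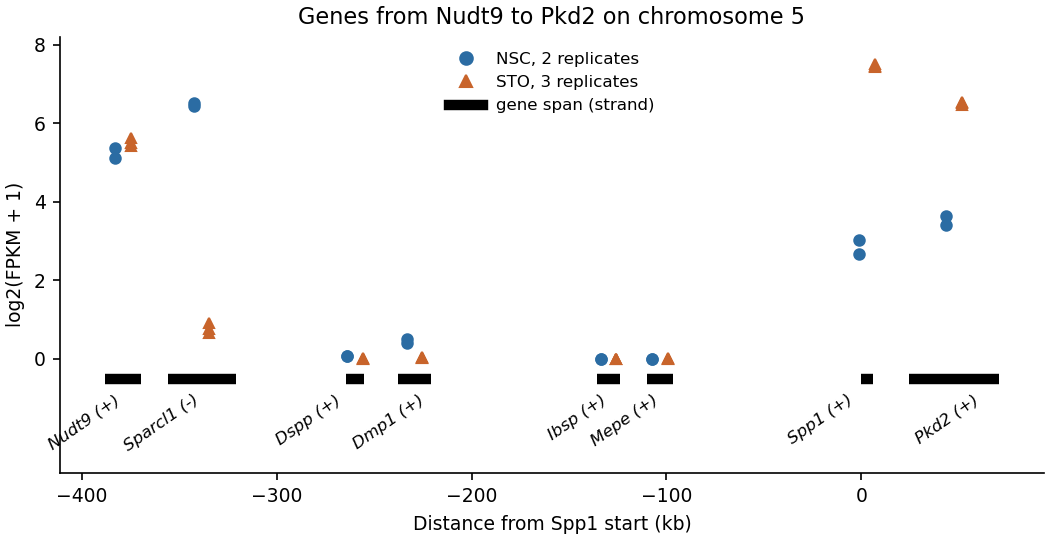
Levels of the 8 genes from Nudt9 to Pkd2 on chromosome 5 as log2(FPKM + 1), against distance from the Spp1 start in kb; circles are the 2 NSC and triangles the 3 STO replicates, and black bars show gene spans to scale with the strand beside the name. Sparcl1 is high in NSC, Spp1 and Pkd2 are higher in STO, and the 4 genes between lie near 0.

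Relatives of the members within their own families were called in both directions, as genes in general were. Of 16 such genes (other thrombospondins, tenascins, SPARC-family and SIBLING genes and the periostin relative Tgfbi), 5 passed the filter, 3 were higher and 2 lower in STO, where 41.9% and 43.7% of all tested genes were, with a median difference of 1.77 against -0.02 over all genes. Tgfbi, a fasciclin-domain protein like periostin, was at 0.178 and 0.173 FPKM in NSC and at 40.3, 38.1 and 41.2 FPKM in STO (5.12 ± 0.057, limma adjusted p = 6.46e-09). Fstl1, a secreted member of the SPARC family, averaged 5.30 ± 0.152 FPKM (SD, n = 2) in NSC and 142 ± 1.74 FPKM (SD, n = 3) in STO (4.50 ± 0.048, adjusted p = 6.03e-09). Smoc1, a SPARC-related modulator of BMP signalling, stood with Sparcl1 and was at 87.0 and 93.6 FPKM in NSC and 0.0256, 0.0223 and 0.00839 FPKM in STO (-6.48 ± 0.056, adjusted p = 5.07e-09). Spock2, a SPARC-related proteoglycan of the brain, averaged 22.9 ± 1.55 FPKM in NSC and 0.0516 ± 0.0379 FPKM in STO (-4.51 ± 0.064, adjusted p = 1.31e-08). Thbs3, chosen here after its values were seen as the remaining relative tested, was higher in STO (1.77 ± 0.070, adjusted p = 1.21e-06). The other 11 relatives, Thbs4, Comp, Tnn and Tnxb among them, had means under 1 FPKM in both cell types. Of the 5 tested, Tgfbi reached this mean only in STO, and Smoc1 and Spock2 only in NSC, so the filter set their direction.

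Other adhesive glycoproteins were higher in STO without exception among those tested. Of 15 CCN proteins, fibulins, nidogens and others, 13 passed the filter and all 13 were higher in STO, where 41.9% of all genes were, with a median difference of 3.65. Of these, Ccn2, Ccn3, Ccn4, Ccn5 and Fbln5 reached a mean of 1 FPKM only in STO, so the filter set their direction. The list was also chosen with earlier results of these data known, so the count is a description only. Nid1, which links laminin to type IV collagen in basement membranes, was at 3.19 and 2.92 FPKM in NSC and 373, 402 and 377 FPKM in STO (6.57 ± 0.061, limma adjusted p = 5.15e-09), while Nid2 averaged 4.23 and 71.7 FPKM (3.80 ± 0.058). Ccn1 and Ccn2, integrin-binding early response proteins, averaged 5.68 and 0.761 FPKM in NSC and 223 and 22.1 FPKM in STO (5.07 ± 0.060 and 3.72 ± 0.058), and Ccn5 averaged 0.0759 and 15.3 FPKM (3.93 ± 0.054). Fbln5, an organizer of elastic fibres, averaged 0.0629 FPKM in NSC and 33.6 FPKM in STO (5.02 ± 0.054). Fbln2 was sizeable in both, at 55.2 ± 0.180 FPKM (SD, n = 2) and 295 ± 9.09 FPKM (SD, n = 3), and differed by 2.39 ± 0.055 (adjusted p = 9.10e-08). Ccn6 was listed at 0 in all samples, and Vtn, which encodes vitronectin, was at 0 in all but STO replicate 3.

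Receptors of the members were called in both directions, in shares near those of all genes. Of 19 integrins, syndecans and other cell-surface partners, 14 passed the filter, 6 were higher and 7 lower in STO and 1 did not pass, beside 41.9% higher and 43.7% lower over all tested genes, with a median of -0.15. Those lower in STO included Ptprz1, a receptor phosphatase that binds tenascins, at 206 and 226 FPKM in NSC, and Cntn1, an adhesion molecule that binds Tnr, at 106 and 117 FPKM in NSC. Both were listed at 0 in all 3 STO replicates. Ptprz1, Cntn1 and the integrin subunit Itga4 reached a mean of 1 FPKM only in NSC, so the filter set their direction. Itgb8, the integrin subunit that activates latent TGF-beta, averaged 33.9 ± 1.65 FPKM (SD, n = 2) in NSC and 1.90 ± 0.167 FPKM (SD, n = 3) in STO (-3.59 ± 0.070, limma adjusted p = 4.69e-08). Itgb1, the common beta subunit of fibronectin receptors, was the most abundant of these receptors in STO and second to Ptprz1 in NSC, at 185 and 200.2 FPKM in NSC and 164, 167 and 171 FPKM in STO. Its difference of -0.20 ± 0.060 (adjusted p = 0.0188) was lost after scaling to TPM (-0.03, adjusted p = 0.646), after quantile normalization (-0.06, adjusted p = 0.33) and without STO replicate 1 (-0.19, adjusted p = 0.0705). Sdc4, a heparan sulfate co-receptor for fibronectin, averaged 58.5 ± 9.19 and 98.8 ± 5.55 FPKM (0.75 ± 0.10, adjusted p = 0.000586). The fibronectin receptor subunit Itga5 (2.00 ± 0.053) and the osteopontin receptor Cd44 (1.82 ± 0.068), both named after their values were seen, were higher in STO, while Itgav, named likewise, was lower (-0.53 ± 0.11, adjusted p = 0.00355).

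All 9 enzymes listed as cutting or modifying the members passed the filter. Of these, 6 were higher and 2 lower in STO and 1 did not pass, beside 41.9% higher and 43.7% lower over all tested genes. Their median difference was 1.75 against -0.02. Mmp2, Mmp9 and Tgm2 reached a mean of 1 FPKM only in STO, so the filter set their direction. Mmp2, a gelatinase that also cleaves fibronectin, was at 0.228 and 0.236 FPKM in NSC and 162, 157 and 165 FPKM in STO (7.04 ± 0.049, limma adjusted p = 3.47e-09), and the related Mmp9 averaged 0.0438 and 10.0 FPKM (3.40 ± 0.050). Htra1, a secreted serine protease, was higher in NSC, at 41.4 ± 1.56 FPKM (SD, n = 2) against 1.36 ± 0.109 FPKM (SD, n = 3) in STO (-4.17 ± 0.063, adjusted p = 1.60e-08). Furin, a proprotein convertase, averaged 10.3 and 38.2 FPKM (1.79 ± 0.093, adjusted p = 4.43e-06). Bmp1, which processes procollagens and other matrix precursors, did not pass (0.08 ± 0.066, adjusted p = 0.288), at 39.6 and 40.1 FPKM in NSC and 44.8, 39.5 and 42.4 FPKM in STO. Its difference was 0.25 after scaling to TPM (adjusted p = 0.00608) and -0.77 for its main transcript alone (adjusted p = 0.000836), so that its direction depends on these choices.

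**Figure D5:**
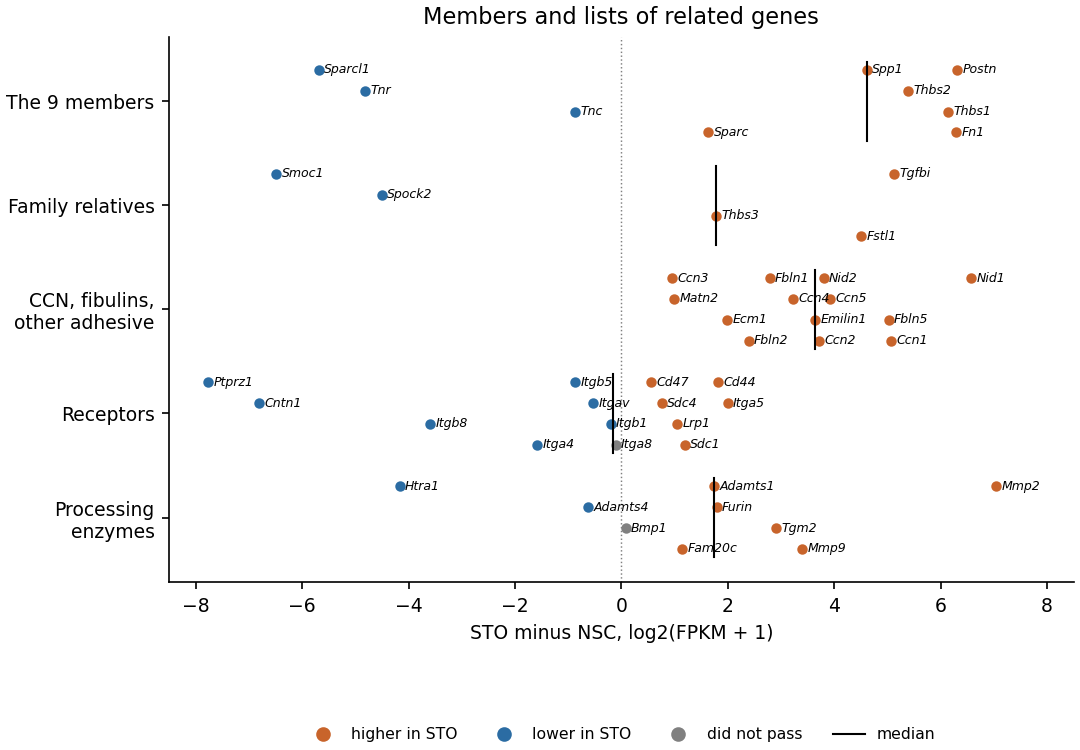
Difference between STO and NSC on the log2(FPKM + 1) scale for the 9 members and for the tested genes of 4 related lists; points are genes, coloured by the limma call, heights within a row only separate the names, and vertical lines are medians. All 13 tested CCN proteins, fibulins and other adhesive glycoproteins lie to the right of 0, while the receptors lie on both sides. Ccn2, Ccn3, Ccn4, Ccn5 and Fbln5 passed the filter only through STO. So did Thbs1, Thbs2, Postn, Tgfbi, Tgm2, Mmp2 and Mmp9. Sparcl1, Tnr, Smoc1, Spock2, Ptprz1, Cntn1 and Itga4 passed it only through NSC.

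For each member the genes with the most similar pattern were taken as those at the smallest Euclidean distance of log2(FPKM + 1) over the 5 samples, among 12291 other genes. With 2 groups of samples this mainly matches both mean levels, and it is a description only. The nearest to Fn1 was Nid1 at a distance of 0.408, followed by Ccl2 at 1.19. Nearest to Thbs1 were Cxcl5 (0.242) and Capn6 (0.250), to Thbs2 Ephb4 (0.128) and Ereg (0.192), and to Postn Osr1 (0.131) and Ptgs1 (0.204). Spp1 lay nearest to Cebpb (0.418) and Oaf (0.626), and Sparc to Rps2 (0.345) and Arpc1b (0.421). On the NSC side, Sparcl1 lay nearest to Vash1 (0.272) and Adgrg1 (0.375), Tnr to Sox21 (0.0888) and Nrgn (0.102), and Tnc to Glud1 (0.116) and Sox4 (0.193).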

How the data were processed

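By the methods of the study, mRNA was made into stranded libraries and read as paired ends, and the trimmed reads were aligned to mm9 with Hisat2. The authors deposited FPKM values from Cufflinks 2.2.1, each with a confidence interval, for 40201 RefSeq rows per sample. Depth and transcript length were already divided out, and how strand was set in quantification is not given in the sources used here. FPKM sums per sample were between 385485 and 446393. No other symbol overlapped a member's locus, and no stretch of 50 bases was shared by any of the 36 pairs of members' transcripts.

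Samples were grouped by their labels. Symbols were matched for 39951 rows through RefSeq identifiers and FPKM was summed per symbol. STO and NSC were compared by a two-sided test in R 4.3.3 with the package limma 3.58.1 (eBayes, trended prior variance) on log2(FPKM + 1), a scale that understates changes of low genes, for the 12292 genes with a mean of at least 1 FPKM in either cell type, with p-values adjusted by Benjamini-Hochberg over all of them and called under 0.05. The code was tested on simulated data. Implied fragments were taken from the distance between a value and its upper bound as 2 standard deviations of a Poisson count. They cover counting error only, and are too low where rows of a gene share reads, so per gene they are given for single-row genes and for Postn alone. An exact 0 can also be a failed estimate; 0 to 20 rows per sample had a status other than OK, none of them a member's.

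Named genes were the members, genes of the lists with an absolute difference of at least 3 (at most 6 per list), up to 3 of the most expressed per list, all genes of the chromosome 5 locus and the 2 most similar genes per member. The members and lists were chosen with earlier results of these data known. Of the cell type markers first listed, 2 are not reported here and were left out of the sums.

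Alternatives changed the pseudocount, the filter, the scaling, the variance model, the block, the rows and the replicates included. Tables and plots were made in Python 3.11.15 (pandas 2.3.3, numpy 2.4.6, scipy 1.17.1, matplotlib 3.10.9).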

Additional observations from a re-analysis of the deposited data

How the results depend on the processing

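All 9 members kept their direction and stayed past the threshold in all 15 alternatives run for each, with a highest adjusted p of 0.00305, for Tnc. Replicate numbers 1 and 2 occur in both cell types, and nothing in the sources used here says that they are paired. Deviations from the group mean correlated at 0.0075 and 0.061 for equal numbers and at -0.061 to 0.050 otherwise. The 2 NSC replicates deviate from their mean by equal and opposite amounts, so these values mirror each other. Their contrast therefore cannot show whether the numbers are paired. Adding the replicate number to the fit as a block left 4994 genes called higher in STO (5153 without it) and 5252 called lower (5375 without it); replicate 3 exists only in STO, so this fit in effect sets STO replicate 3 aside, and among named genes the block changed the call of Nudt9 alone (adjusted p = 0.0977). When single replicates were left out, calls of higher genes ranged from 4704 to 5065 and calls of lower genes from 4900 to 5253; where an NSC replicate was left out, the lone NSC sample was assumed to vary like STO. With a difference of at least 1 required, 2103 genes were higher and 2617 lower. Among the members, Tnc alone, at -0.88, fell short of that requirement, which is not one of the 15 alternatives. Without the filter on low values, 6 family relatives were higher and 6 lower, and 2 genes of the chromosome 5 locus were higher and 3 lower. In that setting 5919 genes were higher and 6559 lower of all 17724 tested. The genes that it added had means under 1 FPKM in both cell types. Scaling to TPM moved the median of all genes by 0.164 and the share of calls that were higher in STO from 48.9% to 55.7%. Bmp1 changed direction for its main transcript alone (-0.77), and the cause was not tested. Only 2 NSC replicates limit the precision there, and for Postn in NSC and Tnr in STO a handful of fragments limit the size of the ratio.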
